A study of Oryza sativa Japonica Group with 14 samples.

Results

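The regions described here carried H3K27me3 peaks in wild-type (WT) shoot apical meristem and in WT inflorescence meristem of rice, and no called peak in the inflorescence meristem of either altered genotype. They were chosen from the authors' peak lists as WT inflorescence meristem peaks that shared at least 1 bp with a WT shoot apical meristem peak and no base with a peak of SDG711 RNAi or of jmj703. Of 11157 WT inflorescence meristem H3K27me3 peaks, 901 met this rule, which is 8.08%. Of the 7640 that overlapped a shoot apical meristem peak, these 901 made up 11.8%, with a 95% Wilson interval of 11.1% to 12.5%. The choice used presence or absence of called peaks, so the counts, peak strengths and class sizes of the H3K27me3 lists are descriptions and support nothing further. H3K4me3 and position on the chromosomes did not enter the choice.

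H3K27me3 is the repressive histone methylation set by Polycomb repressive complexes, and in plants it covers many developmental genes that are silent in a given organ. SDG711 is a rice Polycomb-group methyltransferase of the Enhancer of zeste type, the class of enzyme that sets H3K27me3. JMJ703 is a rice demethylase of H3K4, the residue whose trimethylation marks active promoters. The shoot apical meristem (SAM) forms leaves, and at the floral transition it becomes the inflorescence meristem (IM), which forms the panicle.

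ChIP-seq of both marks was done on hand-dissected apices of field-grown rice of the DongJin background, pooled from about 400 plants. WT SAM was under 0.5 mm and came from plants at leaf stage 6 to 7. The IM samples were 1 to 2 mm long, from leaf stage 10 to 12, and came from WT plants, SDG711 RNAi plants and a jmj703 T-DNA insertion line. WT and jmj703 IM were taken on 21 to 24 June and SDG711 RNAi IM on 17 to 19 June, so genotype and harvest date cannot be told apart for the RNAi plants. The RNAi plants make a transcript against SDG711 and the jmj703 plants are 1 insertion line. The series also has 6 RNA samples, not analysed here, so neither the knockdown nor the insertion was checked. Each tissue, genotype and mark had 1 ChIP library, so there is no spread between replicates, no difference was tested, and Wilson intervals cover counting error over peaks only.

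The lists that hold the regions came from the 2 deepest H3K27me3 libraries, and the lists that lack them from the 2 shallowest. After filtering, WT IM had 22887617 tags and WT SAM 16321456. The jmj703 library had 14337383 tags, 0.626 of the WT IM total, and the SDG711 RNAi library 10502005, 0.459 of it. Up to 3 tags were kept at a position in both WT libraries and up to 2 in both altered libraries. Missing a peak was common in both altered genotypes. Of all WT IM peaks, 39.8% had no SDG711 RNAi peak and 23.2% no jmj703 peak, and 18.3% had neither. Among WT IM peaks shared with WT SAM, 32.7% had no SDG711 RNAi peak and 15.1% no jmj703 peak. A peak list gives no tag count where no peak was called, so absence here means a level below the caller's cutoff and not a level of 0.

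The 901 regions were weak and short peaks in WT IM. Their median was 163 tags, with quartiles of 113 and 280 and a range of 59 to 2645. By comparison, the 4885 WT IM peaks found in all 4 H3K27me3 lists had a median of 427 tags. Median length was 1427 bp for the regions, with quartiles of 1073 and 2173 bp, and 2640 bp for peaks in all 4 lists. Most of the regions were narrow: 649 of them, or 72.0%, were under 2 kb, against 31.4% of peaks in all 4 lists. The share was 69.9% in peaks missing only in SDG711 RNAi and 44.7% in those missing only in jmj703. It was 78.6% in WT IM peaks that overlapped no WT SAM peak, so narrowness was not particular to the regions. In total the regions covered 1.80 Mb.

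Fold enrichment, the authors' ratio of peak height to the regional background, had a median of 2.92 in the regions and 3.57 in peaks of all 4 lists. The negative log10 of the authors' peak p, called peak strength below, had a median of 7.83 against 23.4. The quartiles in the regions were 6.19 and 10.8, close above the caller's cutoff. Only 273 of the regions, or 30.3%, had a p of 1e-10 or less, while 90.0% of peaks in all 4 lists did. Tag density pointed the same way. Scaled to depth, as tags per kb per 1000000 tags, it was 4.96 in the regions and 7.02 in peaks of all 4 lists, and the part above background was 1.86 against 2.83.

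Peaks missing in only 1 altered genotype lay between these classes. The 1599 WT IM peaks missing only in SDG711 RNAi had a median peak strength of 12.1, a median fold of 3.33 and a median of 186 tags. The 255 missing only in jmj703 had a median strength of 9.64, a fold of 3.01 and 305 tags. So the regions missing in both were the weakest of the 4 classes by median strength, fold and tags, a property that absence from shallower lists selects for.

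Sorted by strength into 10 groups of equal size, the WT IM peaks shared with WT SAM fell into the chosen class less often at each step. In the weakest group 41.4% belonged to it, in the second 31.0% and in the third 20.3%. The share was 13.5% in the fourth group, 7.20% in the fifth and 2.09% in the sixth. It was 1.31%, 0.785% and 0.393% in the next, and 0 of the 764 peaks of the strongest group belonged to it, where a count of 0 allows a share of up to 0.393%.

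**Figure D1:**
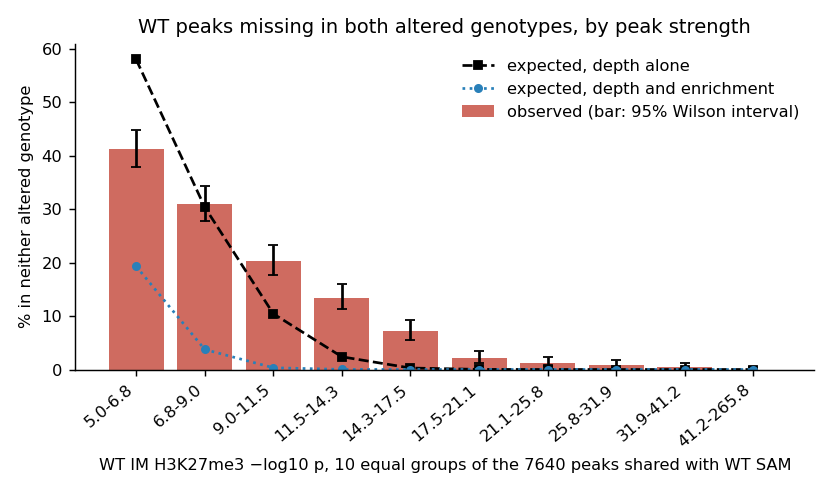
Share (%) of the 7640 WT IM H3K27me3 peaks shared with WT SAM that had no peak in SDG711 RNAi IM or jmj703 IM, in 10 groups of equal size by WT IM peak strength (bars, with 95% Wilson intervals), with the share expected from library depth alone (squares) and from depth with measured enrichment (circles). The observed share falls from 41.4% in the weakest group to 0 of 764 in the strongest; it is below the depth-alone share in the weakest group and clearly above it in the third to the fifth.

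Depth bears on these regions as follows. The background of each WT IM peak was recovered from its deposited tag count and p, and its tags were scaled to the total of the other library. The chance that this scaled peak would still pass the cutoff of 1e-05 was then computed. At equal enrichment, the median chance for the 901 regions was 0.321 in the SDG711 RNAi library and 0.548 in the jmj703 library. For peaks in all 4 lists the median chances were 0.991 and 0.9997. The chance was under 0.5 for 605 of the regions in SDG711 RNAi and for 396 in jmj703. A typical region, at the same underlying level, was thus about as likely to be missed as found in jmj703, and more likely to be missed in SDG711 RNAi.

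Summed over the 7640 peaks, depth alone gave an expected 776 peaks missing in both altered libraries, 86.2% of the 901 observed. The total was near the observed number, but its distribution was not. In the 3 weakest groups, up to a strength of 11.5, there were 708 regions among 2292 peaks and 756 expected. In the 7 stronger groups there were 193 among 5348 and 20.5 expected. In the 5 strongest groups, above a strength of 17.5, there were 35 and 0.172 expected. Within the 3 weakest groups there were 316, 237 and 155 regions, where depth alone gave 444, 233 and 79.6. The observed number was thus below the depth-alone number in the weakest group, near it in the second and above it from the third to the ninth.

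The expected number depends on how enrichment is set. Peaks shared one to one had more excess tag density in the altered libraries than in WT IM, by a median of 1.43 in SDG711 RNAi over 6252 peaks and 1.22 in jmj703 over 8139. These ratios rest on peaks called in the altered lists, which the regions were not, so they may not hold for the regions. With the excess scaled by these ratios, the median chance of detecting a region rose to 0.809 in SDG711 RNAi and 0.820 in jmj703, and the expected number fell to 179. Computed from the overlapping WT SAM peak instead, it was 323. In the 5 strongest groups this setting gave 26.2, 20.7, 15.7, 11.3 and 5.02, above the 16, 10, 6, 3 and 0 observed. In the 5 weakest groups it gave fewer than observed, from 61.1 against 316 in the first to 33.7 against 55 in the fifth. When a peak counted as found only if either of 2 equal parts passed on its own, with its tags spread evenly, the expected number was 1565. That setting did not count a call on the whole peak, so its number exceeds that of depth alone. The setting by parts thus gave 174% of the observed number, and the other settings from 19.9% to 86.2%. The share of the 901 regions that depth accounts for was not fixed by these data. The calculation takes the WT IM tags as the true level, although a peak near the cutoff had to have enough tags to be listed. It also has no spread between preparations, and the joint number takes misses in the 2 altered libraries as independent for a given peak. In the 3 weakest groups, 82.0% of peaks missing in jmj703 were missing in SDG711 RNAi, against 51.6% of those present in jmj703. In the 7 stronger groups these shares were 65.9% and 17.1%. Why they differed was not tested.

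The same calculation was made for 1 altered library at a time. For jmj703, depth alone gave 1124 of the 7640 peaks missing, and 1156 were. For SDG711 RNAi it gave 1832, and 2500 were missing. With measured enrichment it gave 510 for jmj703 and 529 for SDG711 RNAi, both under the observed. When a part of the peak had to pass on its own, it gave 2000 for jmj703 and 2876 for SDG711 RNAi, both above the observed. Under depth alone the jmj703 number was thus near the expected one and the SDG711 RNAi number above it. Under these other settings both genotypes fell on the same side of the expected number, though not in the same proportion.

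How many regions lay well above the detection limit depended on the setting. At equal enrichment, the stricter of the first 2 settings, 12 of the 901 had a chance of at least 0.99 of being found in both altered libraries. With measured enrichment 132 did, computed from the WT SAM peak 191, and with either part of a peak 4. The 12 are 1.33%, with an interval of 0.763% to 2.31%. By the same measure 2478 peaks of all 4 lists were that detectable, or 50.7%, and 177 of those missing only in SDG711 RNAi, or 11.1%. So of 2678 shared peaks with this detectability, 12 were missing in both altered libraries, or 0.448%. Under the other settings the share was 2.66% of 4971 peaks, 5.26% of 3634 and 0.254% of 1572. These 12 had a median of 812.5 tags and of 4082 bp in WT IM.

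The strongest region was chr4:32660803-32666546. Positions are those of the peak lists (build not given in the sources used here). This region was 5744 bp long with 1291 tags in WT IM, a fold of 2.63 and a strength of 39.2. At the SDG711 RNAi depth it would give 592 tags, and at least 489 were needed to pass. At the jmj703 depth it would give 809, and at least 650 were needed. The WT SAM peak that overlapped it most was weak, with 2349 bp, 375 tags and a strength of 6.30. WT SAM peaks together covered 3946 bp of the region, so another SAM peak, not described here, also overlapped it. The nearest altered peaks were 26035 bp away in SDG711 RNAi and 25459 bp away in jmj703, and no H3K4me3 peak of the 4 lists touched the region.

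The next by strength was chr6:30312733-30317548, with 1085 tags in WT IM and a strength of 36.1. Its WT SAM peak had 369 tags and a strength of 21.9. H3K4me3 was called there with 162 tags in SDG711 RNAi IM, 160 in WT IM and 101 in WT SAM, and was not called in jmj703 IM. H3K4me3 was thus called in the RNAi plants at a region where H3K27me3 was not.

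The next pair, chr11:6218373-6223421 and chr9:12739616-12744267, had 880 and 834 tags in WT IM and 371 and 443 in their WT SAM peaks. Neither touched H3K4me3. They differed in surroundings: altered H3K27me3 peaks lay 785 bp (SDG711 RNAi) and 561 bp (jmj703) from the chr9 region, and 16273 and 17007 bp from the chr11 region. The chr9 absence therefore lay beside called peaks of both altered genotypes.

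The fifth by strength was chr4:7258727-7262238, with 510 tags in WT IM and a strength of 27.4, and its WT SAM peak had 355 tags and a fold of 4.10. H3K4me3 was called there in WT IM, SDG711 RNAi IM and jmj703 IM, with 111, 131 and 25 tags, and was not called in WT SAM. The sixth, chr4:24863149-24865430, was an isolated peak of 273 tags on a background at the genome-wide average. It had no H3K4me3, and the nearest altered peaks were 67477 and 39198 bp away.

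The other regions named for their detection probability differed in H3K4me3. The region chr6:24427137-24432802 had 1691 tags and a WT SAM peak of 813 tags with a strength of 52.2, where the strongest SAM partner of any region had 71.5. Similarly, chr12:6755747-6758934 had 791 tags in WT IM and a WT SAM strength of 50.6, and neither had H3K4me3. H3K4me3 was called in all 4 lists at chr9:10126973-10129947, at strengths of 66.8 in SDG711 RNAi IM, 46.6 in WT IM, 23.6 in jmj703 IM and 7.83 in WT SAM. By contrast, chr2:24005482-24010659 touched H3K4me3 in WT SAM alone, at a strength of 5.24.

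**Figure D2:**
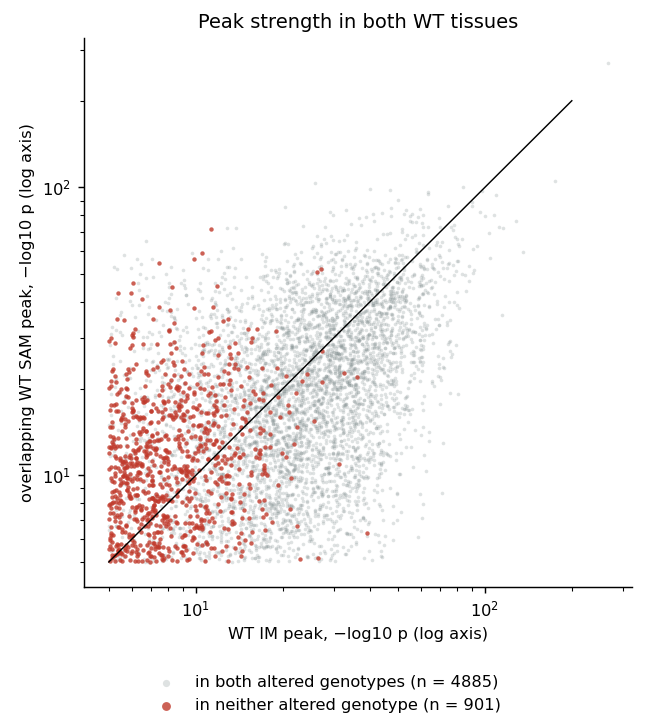
Peak strength (negative log10 of the authors' p) of each WT IM H3K27me3 peak (x, log axis) and of the WT SAM peak it overlaps most (y, log axis), for the 901 regions missing in both altered genotypes (red) and the 4885 peaks in all 4 lists (grey), with the line of equal strength. The red points crowd at low WT IM strength while spreading upward in WT SAM, and 619 of the 901 lie above the line.

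The regions stood higher in WT SAM than in WT IM. The WT SAM peak that overlapped a region most had a median of 147 tags, a length of 1484 bp, a fold of 3.49 and a strength of 10.8. The strength was higher in WT SAM than in WT IM for 619 of the 901, or 68.7%, although the SAM library was shallower. Among peaks in all 4 lists the same held for 37.0%. These strengths come from libraries of different depth, and the rule limits WT IM strength through the altered IM lists, so the split is a description.

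Excess tag density, which is scaled to depth, was higher in WT SAM for 793 of the regions, or 88.0%, against 69.2% of peaks in all 4 lists. The median of the SAM to IM ratio was 1.39 in the regions, 1.21 in all 4 lists, 1.32 in peaks missing only in SDG711 RNAi and 1.46 in peaks missing only in jmj703. A higher SAM value was thus shared by all classes and was not largest in the regions. Their placement agreed well between tissues, with a median of 85.7% of a region covered by WT SAM peaks. All but 23 overlapped a single WT SAM peak.

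The regions varied among themselves. At one end, 272 regions, or 30.2%, sat on a local background equal to the genome-wide average of 2.49 depth-scaled tags per kb. The same held for 5.81% of peaks in all 4 lists. It held for 26.5% of peaks missing only in SDG711 RNAi and 8.24% of those missing only in jmj703. Among WT IM peaks that overlapped no WT SAM peak it held for 39.3%, so it was not particular to the regions. The 272 regions were short and isolated: their median length was 1049.5 bp, with 104 tags, and 8 of them had an altered peak within 1 kb. H3K4me3 in WT IM touched 90 of them, or 33.1%, against 21.9% of all the regions and 25.8% of all WT IM peaks. It touched 39.2% of peaks missing only in SDG711 RNAi in the lowest quartile of tags. The H3K4me3 of other peaks on such a background was not compared. At the other end, 89 regions were at least 4 kb long, with a median of 1160 tags.

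Those long regions had many tags and little enrichment. Their median background was 7.39 depth-scaled tags per kb, against 5.75 in the 1142 peaks of at least 4 kb found in all 4 lists. Their median fold was 2.48 against 3.06, and their median strength 8.14 against 24.1, although the latter had fewer tags, with a median of 956.5. These regions thus joined more tags with a denser surround and a lower fold. The background was taken from the same library with no input control, so sequence copy number and mapping cannot be told apart from histone mark density.

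**Figure D3:**
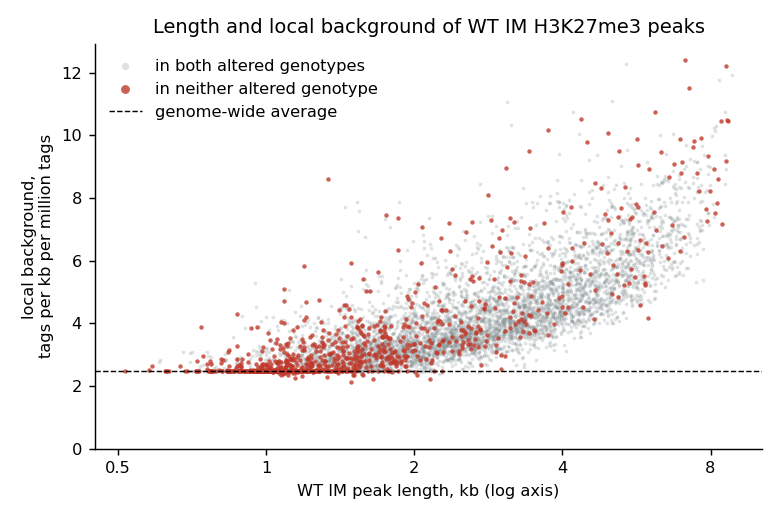
Length (kb, log axis) and local background (tags per kb per 1000000 tags) of WT IM H3K27me3 peaks, for the 901 regions missing in both altered genotypes (red) and for peaks in all 4 lists (grey), with the genome-wide average (dashed). Many short red points lie on the dashed line, where 272 of the 901 sit, and for peaks of at least 4 kb the median background is 7.39 in red and 5.75 in grey.

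The longest region, chr1:13836001-13844697, was 8697 bp with 2299 tags in WT IM, a fold of 2.15 and a strength of 5.75. Scaled to the SDG711 RNAi total it would give 1055 tags where at least 1091 were needed. The next, chr8:4644510-4653143, had 2359 tags and a strength of 9.27, and its WT SAM peak had 1055 tags. At chr7:10351638-10360246 there were 2645 tags, the most of any region, with a strength of 6.08. These 3 thus had low strengths, from 5.75 to 9.27, for very high tag counts. Each touched a WT SAM H3K4me3 peak of strength 5.38 to 7.19 and no other H3K4me3 peak.

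The remaining long region, chr3:5180489-5189104, differed in its H3K4me3. Its H3K27me3 had 2026 tags and a strength of 6.50 in WT IM, while its WT SAM peak reached 41.0. H3K4me3 was called there in all 4 lists, at strengths of 70.2 in WT IM, 64.7 in SDG711 RNAi IM, 34.2 in jmj703 IM and 31.1 in WT SAM.

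H3K4me3, which the rule did not use, touched 315 of the 901 regions in WT SAM, or 35.0% with an interval of 31.9% to 38.1%. In WT IM it touched 197, or 21.9% (19.3% to 24.7%). In SDG711 RNAi IM it touched 209, or 23.2% (20.6% to 26.1%), and in jmj703 IM 143, or 15.9% (13.6% to 18.4%). Over all WT IM H3K27me3 peaks the shares were 32.3%, 25.8%, 27.6% and 21%, so the interval of the regions lay below that background in the 3 IM lists and contained it in WT SAM. Over the 7640 peaks shared with WT SAM, the class the regions were drawn from, the shares were 32%, 21.9%, 24% and 15.9%, all within the intervals of the regions. The lower IM shares thus belong to peaks shared with WT SAM in general and are no result about the regions. The jmj703 H3K4me3 library had 4869161 tags, against 17941001 in SDG711 RNAi, 18452560 in WT IM and 13703302 in WT SAM, so its lower share cannot be told apart from its depth.

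Beside the other classes shared by both WT tissues, the regions were closest to peaks in all 4 lists. Peaks in all 4 H3K27me3 lists touched H3K4me3 in 28.4%, 19.8%, 22.2% and 13.8% of cases, in the same order of lists. The intervals of the regions and of these peaks did not overlap in WT SAM, where the latter ran from 27.1% to 29.6%, and overlapped in the IM lists. Within each of the 4 quartiles of WT IM tags, however, the WT SAM intervals of both classes overlapped. From the lowest quartile up, the shares were 38.0%, 27.6%, 30.2% and 37.3% in the regions. In peaks of all 4 lists they were 33.8%, 32.1%, 25.4% and 26.6%. In the second quartile the intervals of both classes did not overlap in WT IM and SDG711 RNAi IM. There the regions had 12.0% (8.12% to 17.3%) in WT IM, against 21.0% (18.8% to 23.4%). In SDG711 RNAi IM they had 15.1% (10.7% to 20.9%), against 24.1% (21.7% to 26.5%). The IM intervals overlapped in the other quartiles, and in jmj703 IM in all of them. Over all quartiles together, peaks missing only in SDG711 RNAi had the highest shares, at 42.1%, 29.5%, 31.6% and 23.6%. Peaks missing only in jmj703 had the lowest, at 27.1%, 14.1%, 12.2% and 7.84%.

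**Figure D4:**
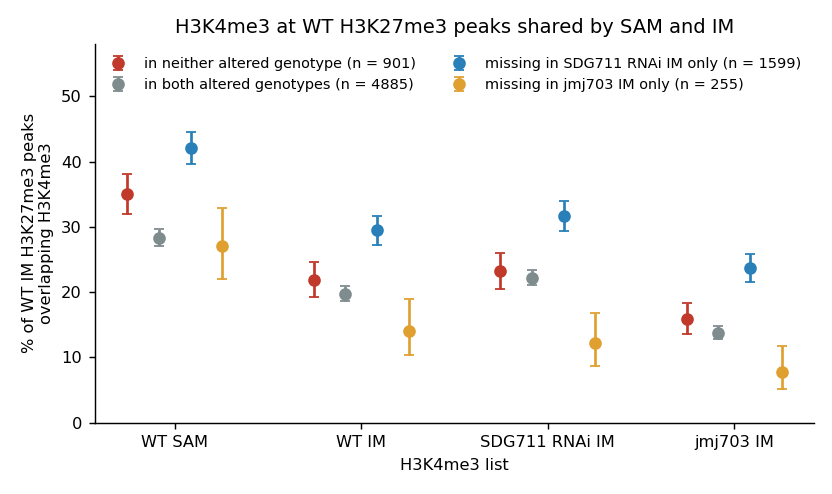
Share (%) of WT IM H3K27me3 peaks shared with WT SAM that overlapped an H3K4me3 peak in each of the 4 H3K4me3 lists, by class of presence in the altered H3K27me3 lists, with 95% Wilson intervals over peaks. The 901 regions (red) lie at 35.0% in WT SAM and between 15.9% and 23.2% in the IM lists, below peaks missing only in SDG711 RNAi (blue) in all 4.

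Most of the regions, 552 or 61.3%, touched H3K4me3 in none of the 4 lists, against 61.9% of all WT IM peaks and 61.6% of those shared with WT SAM. In 128, or 14.2% (12.1% to 16.6%), it was called in all 4, against 18.1% of all WT IM peaks, 12.7% of the shared ones and 10.6% of peaks in all 4 H3K27me3 lists. In 115, or 12.8% (10.7% to 15.1%), it was called in WT SAM alone, against 8.16%, 11.5% and 10.4%. The shares of the peaks shared with WT SAM were within the intervals of the regions in each case. Where H3K4me3 was present its median fold was lower than over all H3K4me3 peaks of the same list. The median fold of the H3K4me3 peaks at the regions was 4.55 in WT IM and 4.45 in SDG711 RNAi IM, over all H3K4me3 peaks of those lists 5.99 and 5.47, and at peaks in all 4 H3K27me3 lists 4.92 and 4.69. In WT SAM it was 3.95 against 4.85, and in jmj703 IM 6.90 against 7.81, with 4.01 and 6.90 at peaks in all 4 H3K27me3 lists. Beside that class, the H3K4me3 peaks at the regions were longer and stronger by median in all 4 lists. In WT IM they had 1806 against 1423.5 bp and a strength of 32.5 against 21.8. Beside all H3K4me3 peaks of the list, their strength was lower except in jmj703 IM, with 23.7 against 18.6.

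Few regions without H3K4me3 in WT IM had it in an altered genotype. Of the 704 regions with no WT IM H3K4me3 peak, 37 had one in SDG711 RNAi IM or jmj703 IM, or 5.26% (3.84% to 7.16%). Over all WT IM H3K27me3 peaks without WT IM H3K4me3 the share was 5.49%, over those shared with WT SAM 6.43%, and among peaks in all 4 lists 6.33%. By genotype, 33 had it in SDG711 RNAi, 7 in jmj703 and 3 in both. A share near the background is no result about the regions. In WT SAM, 135 of the 704, or 19.2% (16.4% to 22.2%), carried H3K4me3, against 13.3% of all WT IM peaks, 17.7% of those shared with WT SAM and 15.6% (14.5% to 16.8%) of peaks in all 4 lists. The share of the peaks shared with WT SAM was within the interval of the regions.

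The strongest such region was chr3:2878686-2880423, with 211 H3K27me3 tags in WT IM and 165 in WT SAM. H3K4me3 was called in WT SAM with 139 tags and in SDG711 RNAi IM with 97, and was not called in WT IM or jmj703 IM. At chr7:5528492-5529508, H3K27me3 had 136 tags in WT IM and 111 in WT SAM, and H3K4me3 was called in SDG711 RNAi IM alone, with 83 tags. At chr7:16893719-16895118, H3K4me3 was called in both altered genotypes, with 106 tags in SDG711 RNAi and 23 in jmj703, and in neither WT tissue. The H3K4me3 peaks in the RNAi plants at these sites were weak, with strengths of 7.37 to 9.96. The jmj703 peak at the last site had a strength of 5.12, close above the cutoff.

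The regions with the strongest H3K4me3 in all 4 lists had an H3K27me3 peak much weaker than the H3K4me3 peak. At chr5:28279945-28280972, H3K27me3 had 115 tags and a strength of 5.25 in WT IM, while H3K4me3 had 1378 tags and a strength of 176. H3K4me3 there had 1129 tags in SDG711 RNAi IM, 577 in WT SAM and 306 in jmj703 IM. At chr7:2317223-2318793 the WT IM strengths were 10.1 for H3K27me3 and 168 for H3K4me3, and at chr7:22841782-22842683 they were 5.88 and 161. Whether both marks sat on the same chromatin or in different cells of the apex cannot be told apart in pooled apices.

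A further group lacked both marks in the altered lists. Of the 180 regions with H3K4me3 in WT SAM and in WT IM, 17 had it in neither altered genotype, or 9.44% (5.98% to 14.6%). The same share was 3.68% over all WT IM H3K27me3 peaks, 6.05% over those shared with WT SAM and 5.44% (4.05% to 7.27%) over peaks in all 4 lists. The value for peaks shared with WT SAM was within the interval of the regions, so the share is not particular to them. The H3K4me3 peaks concerned were weak in WT IM, with strengths of 5.25 to 14.0 and a median of 6.98, so the depth of the jmj703 H3K4me3 library bears on them too. This group was looked at after its values were seen.

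By H3K4me3 strength in WT IM the first of these was chr3:1788638-1789899, with 158 H3K27me3 tags and 181 H3K4me3 tags in WT IM, and 108 and 103 in WT SAM. The next were chr1:7429903-7430992, with 210 and 108 tags in WT IM, and chr7:12116508-12118787, with 271 and 191. H3K27me3 peaks of SDG711 RNAi and jmj703 lay 425 and 426 bp from the chr1 region. They lay 3011 and 2272 bp from the chr3 region, and 10786 and 54564 bp from the chr7 region. One of the 12 regions with the highest chances of detection was also of this kind. At chr4:2632434-2635767, H3K27me3 had 476 tags in WT IM and 485 in WT SAM, and H3K4me3 had 277 and 362. No peak of either mark was called there in SDG711 RNAi IM or jmj703 IM, although an SDG711 RNAi H3K27me3 peak lay 236 bp away. The last of the 12, chr9:7480496-7483073, had 354 tags in WT IM and 217 in WT SAM, and no H3K4me3.

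The distance from the regions to called H3K27me3 peaks of the altered genotypes was like the spacing of WT IM peaks. The median distance was 12558 bp to the nearest SDG711 RNAi peak, 9155 bp to the nearest jmj703 peak and 7585 bp to the nearer of both. To the nearest other WT IM peak it was 8147 bp for the regions and 8719 bp for peaks in all 4 lists. An altered peak of either list lay within 1 kb of 147 regions, or 16.3%, and 10 kb or more away from 373, or 41.4%. Another WT IM peak lay within 1 kb of 130 regions, and whether the near altered peaks match those was not tested.

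**Figure D5:**
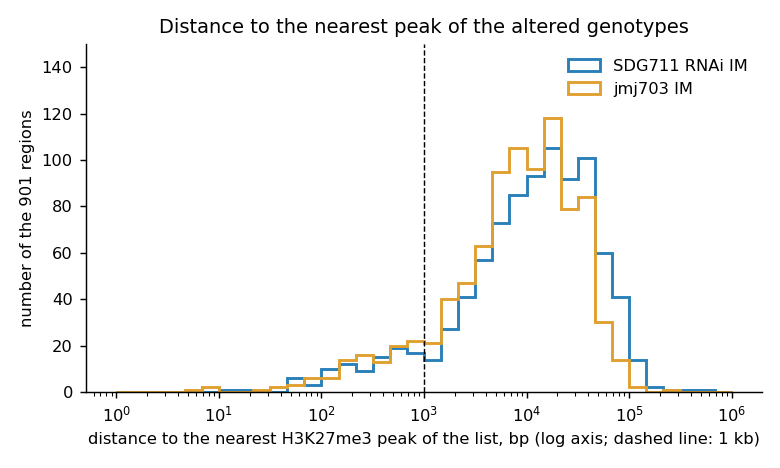
Distance (bp, log axis) from each of the 901 regions to the nearest H3K27me3 peak of SDG711 RNAi IM (blue) and of jmj703 IM (orange), as numbers of regions per bin, with 1 kb marked. The medians are 12558 and 9155 bp, and 147 regions have a peak of either list to the left of the mark.

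At the edge of the rule, chr2:1053604-1056589, with 575 tags in WT IM, lay 5 bp from a jmj703 peak, and chr2:26410906-26411781, with 84 tags, lay 7 bp from another. Just outside, chr11:6963553-6964748, with 140 tags, was kept out by 1 bp shared with an SDG711 RNAi peak, and chr9:16711774-16713508, with 262 tags, by 3 bp shared with a jmj703 peak. On the side of WT SAM, chr11:25952376-25955732 and chr1:1511745-1512983 were kept in by 32 and 36 bp of overlap. The values of these regions lie within the range of the rest.

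The regions were scattered. The median distance from a region to the nearest other one was 123442 bp, and the next WT IM peak along the chromosome was itself one of the 901 in 86 cases, or 9.54% (7.79% to 11.6%), against the 8.08% they make up of all WT IM peaks. No run exceeded 3 neighbours, and there were 8 runs of that length. The one named by the rule was on chromosome 1, at chr1:25475940-25477103, chr1:25498425-25500264 and chr1:25510505-25512024, with 117, 230 and 168 tags in WT IM and 177, 237 and 127 in WT SAM. Only the first SAM peak of this run was much stronger than its IM peak, at 20.2 against 8.13.

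All 12 chromosomes held regions. As a share of the WT IM peaks shared with WT SAM, chromosome 3 had the most, 108 of 719 or 15.0% (12.6% to 17.8%), and chromosome 8 the fewest, 52 of 569 or 9.14% (7.04% to 11.8%). The intervals of these extremes did not overlap, while 12 chromosomes were compared and the share over all was 11.8%. The opposite pattern, a peak in both altered genotypes and neither WT tissue, was found for 313 of 10745 jmj703 peaks and 324 of 8000 SDG711 RNAi peaks.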

How the data were processed

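Peaks were called by the authors separately in each library with MACS 1.4.0rc2, per the file headers, with no control library, a p cutoff of 1e-05, an effective genome of 401 Mb, a band width of 300 bp, 45 bp tags, d of 200 bp and a regional background of 10 kb. Chromatin was fixed in 1% formaldehyde and sheared to 200 to 750 bp, per the labels. Per the submitters' processing notes, which assign no steps, the tools were Trimmomatic 0.32, Bowtie2 2.1.0, Cufflinks 2.2.1 and TopHat2 2.0.13. With the build not given in the sources used here, no gene or sequence is printed.

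Each deposited peak has a raw tag count, a length, a score and a fold. The score, per the file headers, is 10 times the negative log10 of the authors' p, and was divided by 10 here and called peak strength. The fold is the authors' ratio of peak height to regional background. Counts were not normalized by the authors.

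Lists were compared by at least 1 bp of overlap. Where several WT SAM peaks overlapped, the one sharing most bases was used. The background of a peak is the Poisson mean at which its tag count has the deposited p. For 195 of 11157 WT IM peaks it fell below the genome-wide average. Density is tags per kb per 1000000 tags. Chances of detection were computed analytically, and the code was tested on simulated data. Python 3.11.15, numpy 2.4.6, pandas 2.3.3 and scipy 1.17.1 were used. No test was run.

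Regions were named by rule: the 6 strongest, the 4 next by detection probability, the 4 longest, 3 with H3K4me3 in all 4 lists, 3 with H3K4me3 in an altered genotype and not in WT IM, the longest run, and 2 each at the edges of the rule. The remaining regions with a probability of at least 0.99 and those missing both marks were added after their values were seen. The regions, comparisons and lists were chosen with earlier results of these data known.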

Additional observations from a re-analysis of the deposited data

How the results depend on the processing

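Other definitions of presence left 754 to 935 regions under an altered peak within 1 kb counting as present, at least 50% cover of the region by WT SAM or by all lists, or the WT SAM peak taken as the region; these counts were within 1.5 times of 901. The share among shared peaks was 12.6% with 50% WT SAM cover, 9.87% with the 1 kb margin, 14.1% with 50% cover in all lists, and 3.94% and 14.8% with the stricter cutoffs below. The count moved to 185 regions when the WT lists were held to a p of 1e-10, and with all 4 lists so held it was 695. It also moved at a detection probability of at least 0.99, to 12 regions, or 0.448% of the 2678 shared peaks with that probability. Under single depth settings, chosen after seeing the data, that limit left 132 (measured enrichment), 191 (WT SAM peak) and 4 (either part of a peak). Median tags were 154 with WT SAM cover, 154.5 with the margin, 203 and 255 with the WT and all lists held to 1e-10, 144 for WT SAM peaks and 812.5 at 0.99. Median lengths were 1338 bp with WT SAM cover, 1786 and 1981 bp with the stricter WT and all lists, and 4082 bp at 0.99. Median folds were 2.98 with either form of cover, 3.12 and 3.18 with the stricter lists, 3.46 for WT SAM peaks and 2.995 at 0.99.

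In the 3 IM lists the H3K4me3 share fell with stricter H3K27me3 lists, while in WT SAM it was 35.1% and 32.5%. With the WT lists at 1e-10 it was 10.8% in jmj703 IM, 17.3% in SDG711 RNAi IM and 18.4% in WT IM, and with all lists 11.1%, 18.7% and 16.1%. At 0.99 it was 33.3% in WT IM, which is 4 of 12 regions. With H3K4me3 lists held to 1e-10 the shares were 17.6% in WT IM, 19.1% in SDG711 RNAi IM, 11.2% in jmj703 IM and 21.3% in WT SAM, and with at least 50% of the region covered 17.6%, 17.6%, 12.2% and 26.7%. Among regions without WT IM H3K4me3, the share with it in an altered genotype was 3.31% with stricter WT lists, 0 of 8 at 0.99, 3.37% with stricter H3K4me3 lists and 2.70% with 50% cover. Expected numbers from depth were 179 with measured enrichment, 323 from the WT SAM peak and 1565 for either part of a peak, against 776. The cause of these moves was not tested. Of the other 37 of 86 recomputed values, counts of regions stayed within 1.5 times and the rest within their counting interval.

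No paired analysis was possible because each tissue, genotype and mark had 1 ChIP library, and leaving out a replicate was not possible either. Depth limits every absence: for regions near the cutoff a lower level and a missed peak cannot be told apart.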
